A study of Mus musculus with 12 samples.

Results

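Ribosome biogenesis was followed through 40 genes, picked by symbol from the 19680 genes of the count table because their products are nucleolar proteins, parts of the RNA polymerase I machinery or factors that assemble pre-ribosomes. The choice was made with earlier results of these data known, and all 40 had enough counts to be tested. Of the 40, 21 were higher in arid4b∆ than in WT cells directed to mesoderm, against 8.97% of all tested genes. A refit without WT mesoderm library 3 called 13, with no share of all genes given for that refit. In cells directed to endoderm 3 of the 40 were higher, all of them among the 21 higher in mesoderm. That share of 7.5% was near the 5.78% of all tested genes, and no member was lower in either lineage. The libraries came from CJ9 mouse embryonic stem cells, WT or arid4b∆, that had been pushed toward endoderm or mesoderm for 5 days. There were 3 libraries in each of 4 groups: WT endoderm, arid4b∆ endoderm, WT mesoderm and arid4b∆ mesoderm. Arid4b encodes a subunit of the Sin3 histone deacetylase complex, and the series asks about its part in lineage commitment. Neither the make of the allele nor the number of clones is stated in the labels. They also do not say that replicates were grown separately, so each p-value reflects differences among libraries that could be purely technical.

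Ribosomes are built in the nucleolus, where RNA polymerase I transcribes the ribosomal RNA precursor. Small nucleolar ribonucleoproteins (snoRNPs) of the box C/D class methylate that precursor and those of the box H/ACA class convert uridines to pseudouridines, while large sets of assembly factors cut and fold it, with ribosomal proteins, into the small and the large subunit. Pluripotent stem cells are known for high ribosomal RNA synthesis, which declines as they differentiate, and many genes of the process are known targets of Myc proteins.

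The promoters of 4 members are shown because each of these genes rose in arid4b∆ cells and holds, in the 100 bases before its start, a complete E-box (CACGTG, the letters bound by Myc and Max) or a complete ETS-type element (CGGAAGTG), searched on both strands. Sequences are from RefSeq on GRCm38.p6, written 5′ to 3′ on the strand of the gene, and capitals mark the motif. Neither motif lies within the other.
Rrn3 (chr16:13780599-13780698, plus strand): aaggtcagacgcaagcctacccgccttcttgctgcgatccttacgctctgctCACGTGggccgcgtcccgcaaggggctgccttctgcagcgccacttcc
Ddx21 (chr10:62602299-62602398, minus strand): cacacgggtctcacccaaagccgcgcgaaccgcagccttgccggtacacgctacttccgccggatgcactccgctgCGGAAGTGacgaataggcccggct
Tsr1 (chr11:74897980-74898079, plus strand): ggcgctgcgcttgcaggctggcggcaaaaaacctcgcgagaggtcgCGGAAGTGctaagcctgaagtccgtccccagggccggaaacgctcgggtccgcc
Nop2 (chr6:125131783-125131882, plus strand): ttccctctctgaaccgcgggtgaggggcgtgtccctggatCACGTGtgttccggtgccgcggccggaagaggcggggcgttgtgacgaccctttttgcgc
Rrn3 and Nop2 carry the E-box, and Ddx21 and Tsr1 the ETS-type element, and the wider windows of Rrn3 and Tsr1 hold both. RefSeq promoter windows, from 250 bases before to 50 bases after the start, were found for 35 of the 40 members. An E-box was present in 7 of the 35, against 1115 of the 9244 tested genes with a window (12.1%) and 2187 of all 27025 genes with one (8.09%). The ETS-type element was present in 9 of the 35 (25.7%), against 8.81% and 3.86%. A CCAAT box, a common promoter element, stood in 37.1% of the members, against 44.1% and 41.1%. The longer ZBTB33 and NRF1 elements were in none of the 35 members, against 1.24% and 2.47% of tested genes. Members not called by genotype in either lineage held a motif in these windows too. Pes1 and Utp20 held the E-box, and Gar1 and Nhp2 the ETS-type element. These are letter matches only, and no binding was measured.

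Libraries held 10351074 to 35660108 counts. The ribosomal RNA precursor Rn45s took 79.7% to 82.4% of them and was left out, which left 1949299 to 6678893 counts, and the 40 members together received 8613 to 28733 counts per library. Levels are given as CPM, counts scaled to a common library size, with Rn45s left out and trimmed mean of M values (TMM) factors applied. Arid4b itself checked nothing about the labels: its CPM was 41.7, 44.7 and 36.8 in WT endoderm against 42.8, 51.1 and 45.0 in arid4b∆ endoderm, and 37.0, 46.5 and 42.9 in WT mesoderm against 44.9, 41.7 and 47.6 in arid4b∆ mesoderm (edgeR quasi-likelihood test, adjusted p = 0.364 and 0.599). Reads outside a deleted part can remain, so arid4b∆ below means the libraries labelled so. Summed CPM of 6 endoderm markers was 143 to 221 in WT endoderm and 6.62 to 14 in arid4b∆ endoderm, and that of 7 streak and mesoderm markers, Mesp1 being at 0 in arid4b∆ mesoderm, was 227 to 477 in WT mesoderm and 24.4 to 34.8 in arid4b∆ mesoderm. Both sums were thus low in these arid4b∆ libraries. The streak and mesoderm sum was 239 to 262 in WT endoderm, so that list did not separate the WT lineages.

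The members spanned a wide range of levels. Mean CPM over the 12 libraries ran from 13.6 for Nop16, an assembly factor of the large subunit, to 929 for Npm1, the nucleolar chaperone nucleophosmin, with a median of 68.0 against 14.4 over all 11635 tested genes. Genes can be compared with each other only per length, here CPM per kilobase of the principal GENCODE transcript. On that scale Npm1 stood at 569, followed by Ncl (nucleolin) at 104, the box C/D proteins Nop56 at 72.5 and Nop58 at 70.6, and Fbl (fibrillarin, the box C/D methyltransferase) at 67.0. The neighbours Nop56 and Fbl did not differ beyond their spread in WT endoderm (67.8 ± 2.54 and 69.9 ± 10.9, SD, n = 3). The lowest were Noc3l at 7.13, Nvl at 7.24 and Nop16 at 7.73, all 3 large-subunit factors. Npm1 and Ncl held the top places in all 4 groups. The order depends on the transcript chosen: with all annotated exons Nop58 dropped from place 4 to place 30, and the Ncl transcript used spans 8202 bases.

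**Figure D1:**
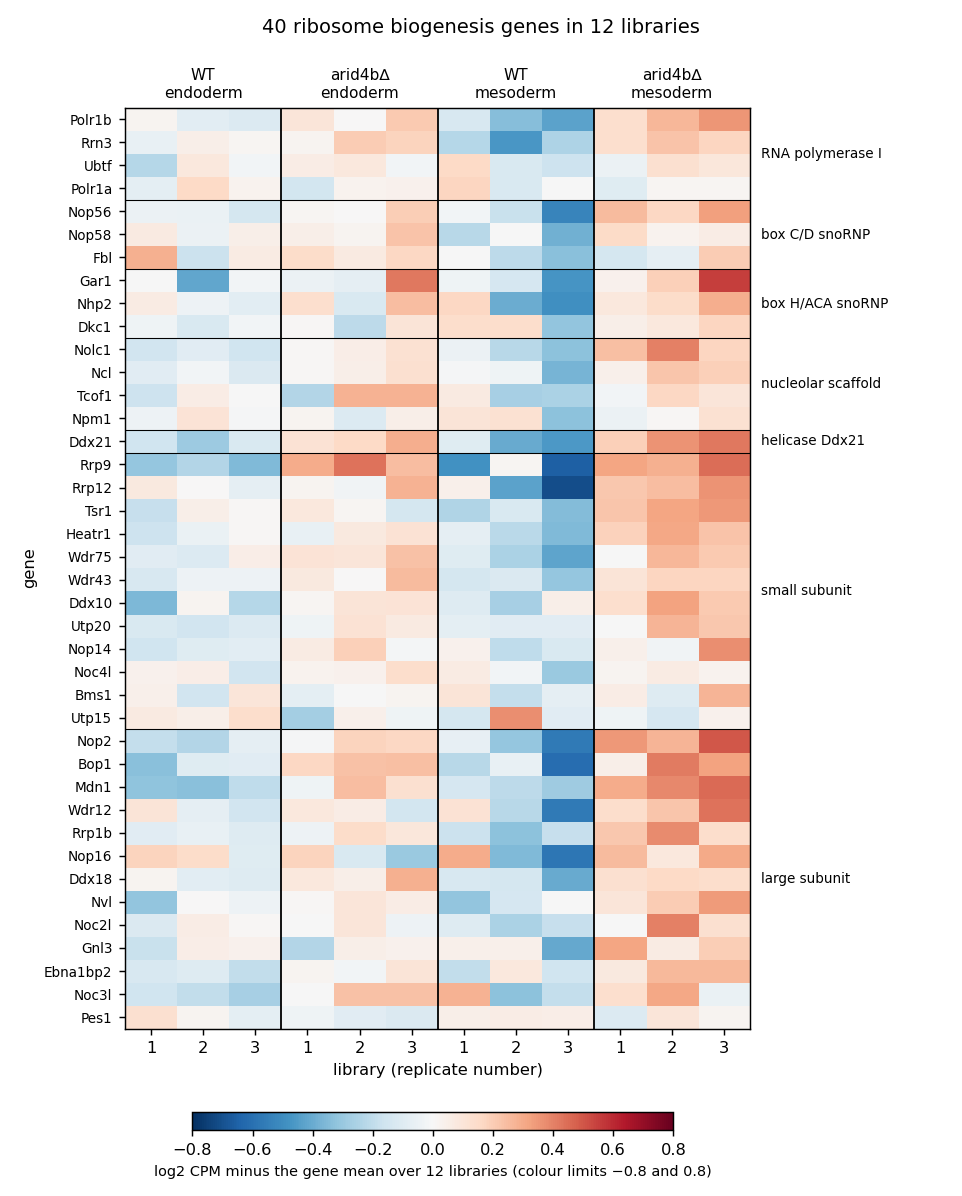
Level of each gene (rows, by role) in each library (columns, by group and replicate) as log2 CPM minus the mean of that gene over the 12 libraries; red is above and blue below the mean. Most rows are red in the 3 arid4b∆ mesoderm libraries, and WT mesoderm library 3 is the bluest column.

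In the endoderm direction 3 members rose in arid4b∆ cells: Rrp9, Mdn1 and Ddx21. They are 7.5% of the members, against 5.78% of all tested genes called higher, so the count of calls was near the background. None was called lower, against 6.92% of all genes. The median log2 fold change of the 40 was 0.15, against -0.00 over all tested genes, and 33 of 40 estimates were positive. With scaling by library size alone, which put the median of all genes at -0.15, the member median was -0.0044 and 0 members were called. The libraries of the genotypes did not overlap for 18 members, 17 higher (14.7% of all genes were separated upward) and 1 lower, Utp15 (15.5% downward).

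Rrp9 (chromosome 9, 106477309 to 106485415), the U3 snoRNP protein that takes part in the early cuts toward the small subunit, stood at 17.2, 18.2 and 16.7 CPM in WT endoderm and 26.5, 29.2 and 25.6 CPM in arid4b∆ endoderm. All arid4b∆ libraries lay above all WT libraries, and the rise was 1.55-fold (log2 0.64 ± 0.14 SE, adjusted p = 0.00466). Mdn1 (chromosome 4, 32657114 to 32775217), the giant ATPase midasin that strips assembly factors from large-subunit precursors, went from 271, 269 and 295 CPM to 331, 402 and 370 CPM. The groups did not overlap, and the rise was 1.32-fold (0.40 ± 0.10, adjusted p = 0.00655). Ddx21 (chromosome 10, 62580247 to 62602298), a nucleolar RNA helicase that links RNA polymerase I transcription to processing and whose promoter is shown above, went from 172, 157 and 176 CPM to 208, 214 and 235 CPM. Its groups were also apart, with a 1.31-fold rise (0.39 ± 0.10, adjusted p = 0.0159). The Ddx21 call ended without WT endoderm library 2 (adjusted p = 0.103) or arid4b∆ endoderm library 3 (0.081), with a range over all alternatives of 0.00434 to 0.555. Fitted on the endoderm libraries alone, 6 members were called in place of 3, with no share of all genes given for that fit.

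Nearest to the threshold in endoderm was Bop1, with Pes1 and Wdr12 a member of the PeBoW complex of the large subunit. It stood at 32.4, 38.4 and 38.5 CPM in WT and 46.0, 48.2 and 48.5 CPM in arid4b∆ libraries, which did not overlap (0.38 ± 0.13, adjusted p = 0.0512). Other members, named whatever their result, were not called in endoderm. The log2 difference was -0.07 for Polr1a (the largest RNA polymerase I subunit), 0.07 for Fbl, 0.14 for Ncl, -0.04 for Npm1, 0.03 for Dkc1 (the H/ACA pseudouridine synthase dyskerin), -0.11 for Pes1 and 0.20 for Nolc1 (a scaffold of nucleoli and Cajal bodies). Adjusted p for these 7 ran from 0.194 to 0.91.

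In the mesoderm direction 21 of the 40 members rose in arid4b∆ cells and none fell. That is 52.5% of the members, against 8.97% of all tested genes called higher and 10.1% called lower. Of the 6019 genes at or above the lowest member mean, 725 were called higher in mesoderm and 431 in endoderm. The median log2 fold change was 0.36, against 0.01 over all genes, and 37 of 40 estimates were positive. The libraries of the genotypes did not overlap for 25 members, all higher (15.8% of all genes). The 25 include 20 of the 21 called genes, Ebna1bp2 being the exception, and also Gar1, Utp20, Ncl, Gnl3 and Ddx10, which missed the threshold.

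**Figure D2:**
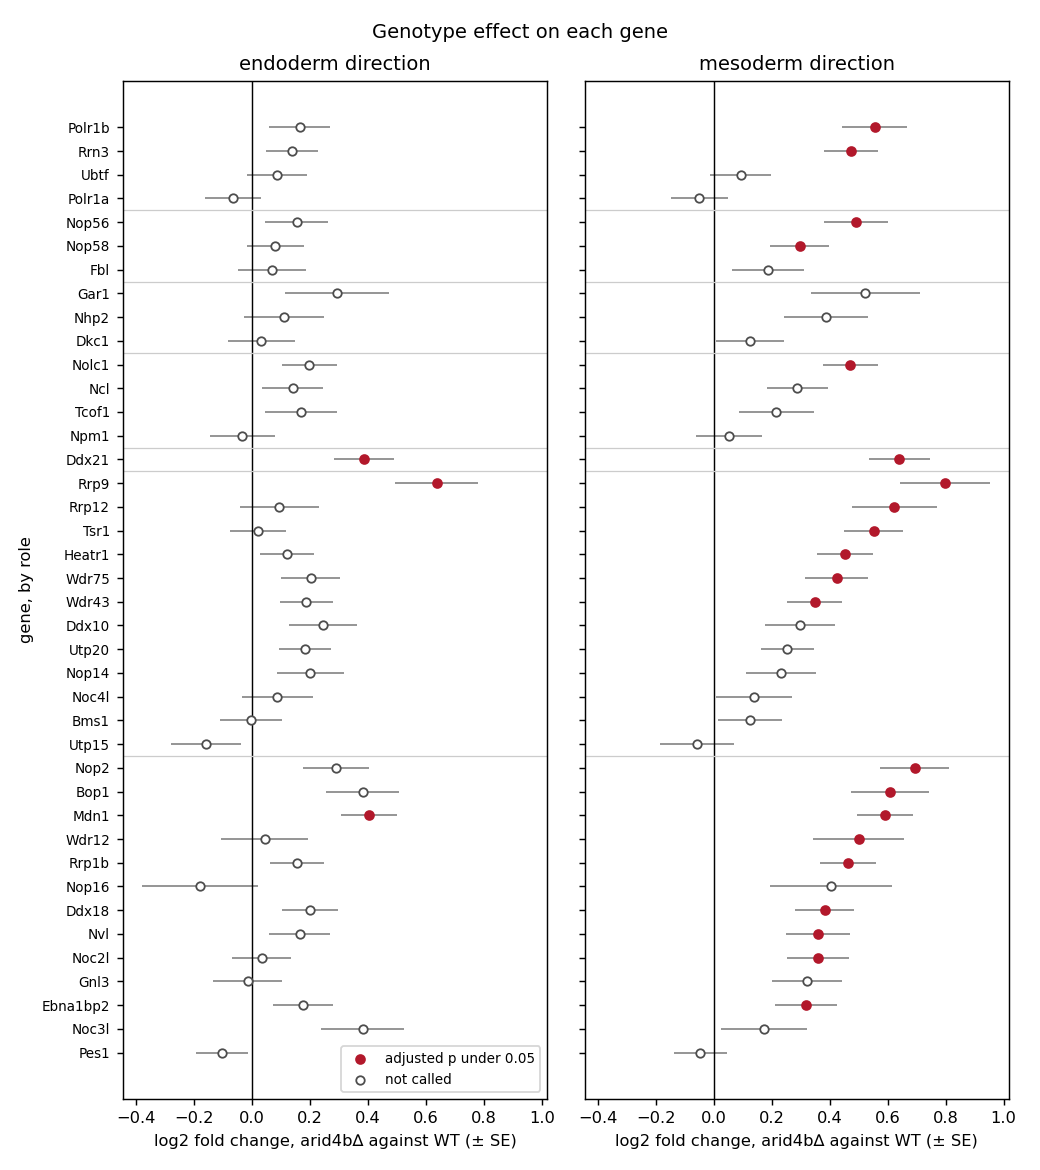
Log2 fold change of each gene, arid4b∆ against WT, with its SE, in the endoderm (left) and mesoderm (right) direction, genes grouped by role; filled red points passed the edgeR test at an adjusted p of 0.05. Filled points number 3 on the left and 21 on the right, all above 0.

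Among the 4 genes of RNA polymerase I transcription 2 rose in mesoderm. Rrn3 (chromosome 16, 13780699 to 13814841), the initiation factor TIF-IA that makes the polymerase competent and whose promoter holds an E-box, stood at 82.3, 69.8 and 81.3 CPM in WT and 106, 113 and 109 CPM in arid4b∆ libraries. The groups were well apart (log2 0.47 ± 0.09, adjusted p = 0.000923). Polr1b (chromosome 2, 129100970 to 129128060), the second largest polymerase subunit, went from 42.0, 36.2 and 34.1 CPM to 50.5, 55.2 and 58.9 CPM, again with no overlap (0.55 ± 0.11, adjusted p = 0.00117). The largest subunit was not called. Polr1a stood at 113, 92.5 and 100 CPM in WT and 93.9, 102 and 101 CPM in arid4b∆ mesoderm, with overlapping libraries (-0.05, adjusted p = 0.777). Ubtf, the factor that keeps ribosomal DNA repeats open, gave 0.09 (adjusted p = 0.614).

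**Figure D3:**
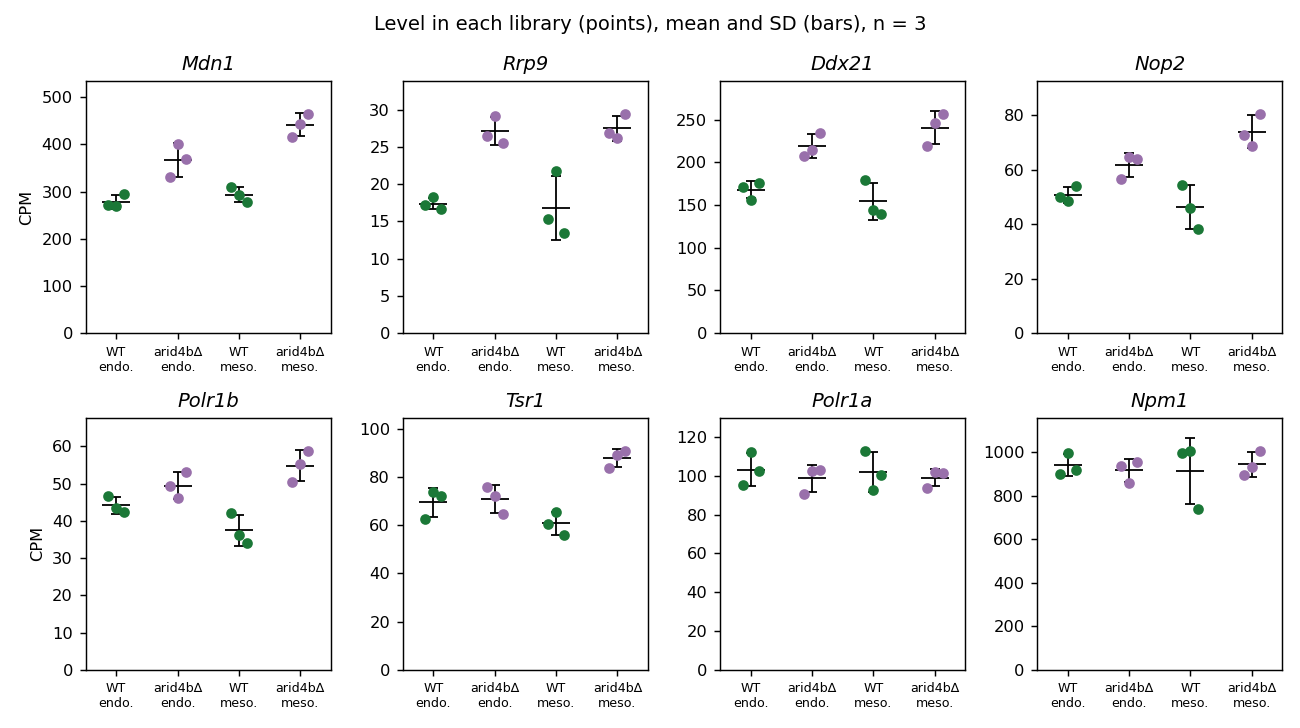
CPM of 8 genes in each library (points, 3 per group) with the group mean and SD (bars); axes start at 0. Mdn1, Rrp9 and Ddx21 are higher in arid4b∆ libraries in both directions, Nop2, Polr1b and Tsr1 passed the test in mesoderm, and the groups of Polr1a and Npm1 overlap.

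Of the box C/D proteins, the core subunits Nop56 and Nop58 rose in mesoderm and Fbl was not called. Nop56 stood at 133, 119 and 93.2 CPM in WT and 161, 151 and 169 CPM in arid4b∆ libraries, without overlap (0.49 ± 0.11, adjusted p = 0.00322). The change of Nop58 was smaller (0.30, adjusted p = 0.0455) and its call ended when any 1 of 5 mesoderm libraries was left out, all but WT library 2. Fbl ranged from 63.0 to 79.3 CPM in WT and from 72.1 to 91.5 CPM in arid4b∆ libraries, which overlap (0.19, adjusted p = 0.326). None of the 3 box H/ACA proteins was called, although their median log2 change was 0.39. Gar1 gave 0.52 (adjusted p = 0.0543), Nhp2 0.39 (0.0694) and Dkc1 0.13 (0.512), and Gar1 is among the lower members, at 15 to 31 CPM in the mesoderm libraries.

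Of the nucleolar scaffold and chaperone genes 1 of 4 rose in mesoderm. Nolc1 went from 105, 92.5 and 85.9 CPM in WT to 128, 143 and 122 CPM in arid4b∆ libraries, which lay apart (0.47 ± 0.10, adjusted p = 0.00135). Ncl stood at 839, 824 and 652 CPM and at 870, 988 and 964 CPM. Its groups did not overlap, but it missed the threshold (0.29, adjusted p = 0.059), and it passed with DESeq2 (0.0241) and limma-voom (0.0185), with a range over all alternatives of 0.0185 to 0.819. Npm1, the most abundant member, stood at 995, 1008 and 739 CPM in WT and 896, 933 and 1008 CPM in arid4b∆ libraries, with overlap and no call (0.05, adjusted p = 0.803). Tcof1, the treacle protein of ribosomal DNA transcription, gave 0.22 (adjusted p = 0.27). Ddx21 rose 1.56-fold, from 179, 145 and 139 CPM to 219, 247 and 257 CPM (0.64 ± 0.11, adjusted p = 0.000172), and its groups did not overlap.

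Of the 12 small-subunit factors 6 rose in mesoderm. Tsr1 (chromosome 11, 74898080 to 74909340), a late 40S maturation factor with the ETS-type element shown above, had the smallest adjusted p of the 12. It stood at 60.5, 65.6 and 56.0 CPM in WT and 83.6, 89.2 and 91 CPM in arid4b∆ libraries (0.55 ± 0.10, adjusted p = 0.00047), with no overlap. Rrp9 went from 15.3, 21.7 and 13.5 CPM to 26.9, 26.2 and 29.4 CPM, a 1.74-fold rise and the largest among the members (0.80 ± 0.15, adjusted p = 0.000835). The other 4 were Heatr1 (0.45), a subunit of the early t-UTP complex; Rrp12 (0.62), an export factor; and Wdr75 (0.42) and Wdr43 (0.35), also t-UTP proteins, with adjusted p from 0.00182 to 0.0121. Utp20 (0.25, adjusted p = 0.0559) and Ddx10 (0.30, adjusted p = 0.094) came next, and Nop14, Noc4l, Bms1 and Utp15 were not called, with estimates from -0.06 to 0.23. The annotated exons of Tsr1 and Srr, on opposite strands, overlap by 1159 bases. The sources used here do not say whether counting used strand, so the share of Srr reads in the Tsr1 count is not known; Srr itself gave 0.38 (adjusted p = 0.036).

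Of the 13 large-subunit factors 9 rose in mesoderm. Mdn1 went from 309, 293 and 278 CPM in WT to 416, 443 and 465 CPM in arid4b∆ libraries, a rise without overlap (0.59 ± 0.10, adjusted p = 0.000156). Nop2 (chromosome 6, 125131883 to 125144753), the methyltransferase of the 28S precursor whose promoter carries an E-box, went from 54.5, 46.0 and 38.3 CPM to 72.6, 68.8 and 80.5 CPM. The groups lay apart (0.69 ± 0.12, adjusted p = 0.000261). In the PeBoW complex Bop1 (0.61, adjusted p = 0.00255) and Wdr12 (0.50, adjusted p = 0.0293) rose, while Pes1 stood at 83.3, 84.2 and 83.7 CPM in WT and 74.9, 86.4 and 81.9 CPM in arid4b∆ libraries, which overlap (-0.05, adjusted p = 0.775). The other 5 called genes were Rrp1b (0.46), the helicase Ddx18 (0.38), the AAA ATPase Nvl (0.36), Noc2l (0.36) and Ebna1bp2 (0.32). Gnl3 (nucleostemin, 0.32), Nop16 (0.40) and Noc3l (0.17) were not called. Exons of Nvl and of Noc2l overlap a gene on the opposite strand by 1137 bases (Fgfr3-ps) and 598 bases (Samd11).

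**Figure D4:**
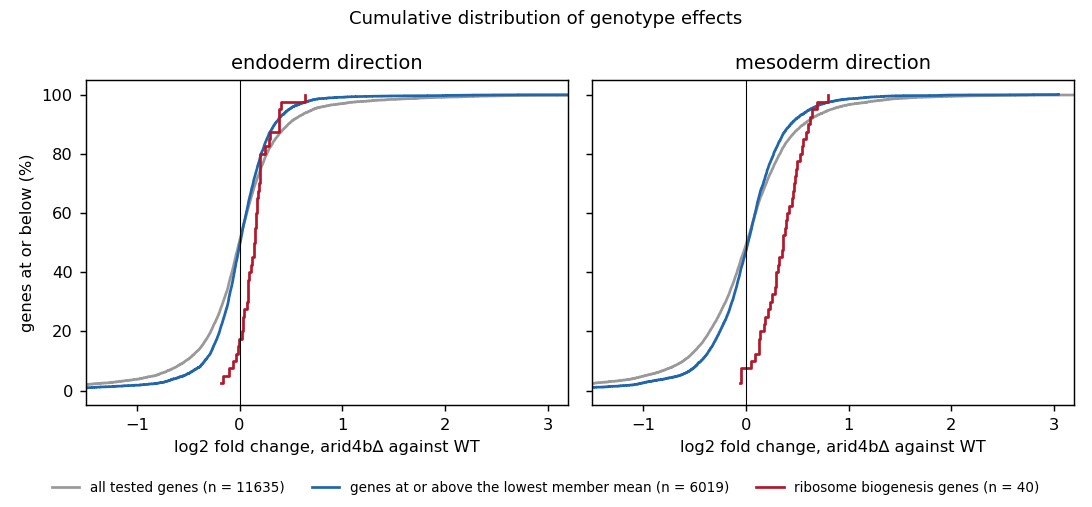
Cumulative share of genes (%) against log2 fold change, arid4b∆ against WT, for all tested genes (grey), genes at or above the lowest member mean (blue) and the 40 members (red), in the endoderm (left) and mesoderm (right) direction; a few genes lie outside the plotted range. The median of the members is at 0.15 on the left and 0.36 on the right.

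The size of the mesoderm result depended on 1 library. Summed over the 40 members, CPM was 4669, 4451 and 3805 in WT mesoderm libraries 1 to 3 and 5004, 5375 and 5493 in arid4b∆ mesoderm; it was 4441, 4607 and 4520 in WT endoderm and 4758, 4880 and 5122 in arid4b∆ endoderm. In each lineage every arid4b∆ sum was above every WT sum, and WT mesoderm library 3 was the lowest of the 12. In that library 38 members were below their own mean, the median deviation being -0.33 on the log2 scale against -0.05 and -0.18 in the other WT mesoderm libraries. Without it 13 members were called in mesoderm, all among the 21, and the median fell to 0.28. Rrp12, Wdr43, Wdr75, Ddx18, Noc2l, Nop58, Wdr12 and Ebna1bp2 then missed the threshold. Wdr12 was also lost without WT library 2, arid4b∆ library 2 or 3, Noc2l without WT or arid4b∆ library 2, Ebna1bp2 without WT library 1, arid4b∆ library 2 or 3, and Nvl without WT library 1 or 2, arid4b∆ library 2 or 3. Without WT mesoderm library 1 the count was 23 and the median 0.41. Scaling by library size alone put the median of all genes at -0.22 and that of the members at 0.13, and left 0 members called. The share of all tested genes called in each of these refits is not given here, so their counts have no background beside them.

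**Figure D5:**
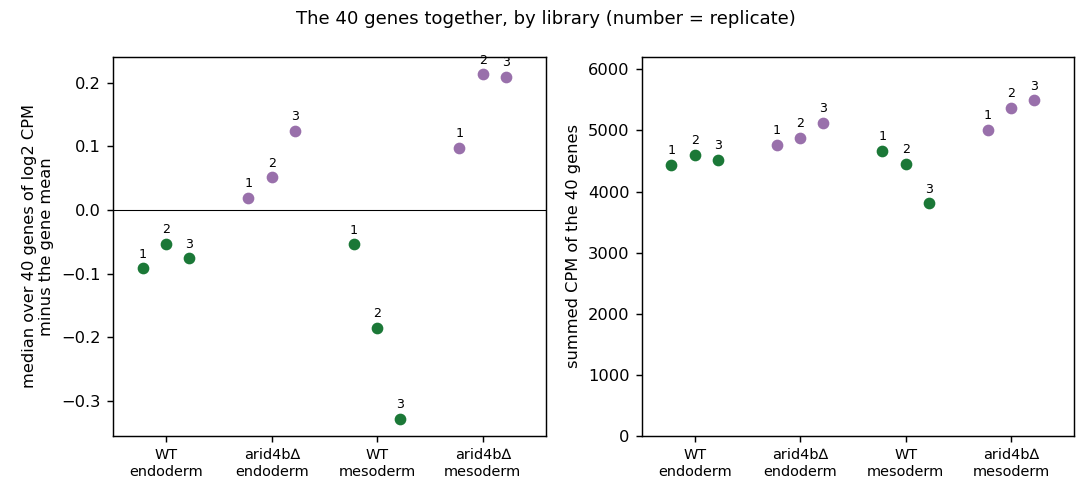
The 40 genes together in each library, as the median of log2 CPM minus the gene mean (left) and as summed CPM (right); green is WT, purple arid4b∆, and numbers are replicates. In each direction the 3 arid4b∆ libraries lie above the 3 WT libraries, and WT mesoderm library 3 is lowest, at 3805 CPM.

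Marker sums of other cell states also differed between these libraries, though not always in the order of the members. In WT mesoderm the pluripotency sum was lowest in library 2, and the members were lowest in library 3. In both arid4b∆ groups that sum followed the order of the members. Libraries 1 to 3 gave 456, 458 and 500 CPM in arid4b∆ endoderm and 479, 496 and 553 CPM in arid4b∆ mesoderm. In WT endoderm the pluripotency sum was 442, 383 and 418 CPM, lowest in library 2, where the members were highest. Streak and mesoderm markers summed to 227, 375 and 477 CPM in WT mesoderm libraries 1 to 3, highest where the members were lowest. In both arid4b∆ groups the streak and mesoderm sum was highest in library 3, where the members were highest too (24.8 CPM in endoderm, 34.8 CPM in mesoderm). The 7 pluripotency markers summed to 324 to 397 CPM in WT mesoderm and 479 to 553 CPM in arid4b∆ mesoderm, and to 383 to 442 and 456 to 500 CPM in endoderm. Of these 7, 3 rose and 1 fell in mesoderm, and 4 rose and 1 fell in endoderm. The 10 fibroblast or feeder markers, 7 of them tested, summed to 24.8 to 110 CPM in WT and 93.9 to 225 CPM in arid4b∆ mesoderm, where 1 rose, and to 19.8 to 75.6 and 78.1 to 271 CPM in endoderm, where 4 rose; Lum was at 0 in WT endoderm. Neural markers, of which 1 of 5 was tested, and extraembryonic endoderm markers, 2 of 6, gave no call in either genotype comparison. The part of these cell states in the result was not tested, and in bulk RNA more cells of a type and more RNA per cell cannot be told apart. The share of Rn45s in all counts was 81.3%, 81.2% and 80.0% in WT mesoderm and 82.4%, 82.0% and 81.4% in arid4b∆ mesoderm, and the genotypes overlapped in endoderm; the libraries were depleted of ribosomal RNA, and the part of depletion in these shares was not tested.

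Averaged over both lineages, the genotype effect was called in 23 members, all higher, against 13.9% of all tested genes. The median was 0.26, and with scaling by library size alone, where 1 member was called, it was 0.082 against -0.19 for all genes. Ncl, Utp20, Gar1, Noc3l and Ddx10 were called in the average alone; leaving out a single library ended this call of Ncl in 6 cases, Noc3l in 9, Gar1 in 4 and Ddx10 in 1. Nop58, Wdr12 and Noc2l were called in mesoderm and not in the average. The smallest adjusted p belonged to Mdn1 (0.50 ± 0.07, adjusted p = 1.07e-05), Ddx21 (0.51 ± 0.07) and Rrp9 (0.72 ± 0.11). In the other roles the leading genes were Rrn3 (0.31 ± 0.06) and Polr1b (0.36 ± 0.08) of RNA polymerase I, Nop56 (0.32 ± 0.08) of box C/D, Gar1 (0.41 ± 0.13) of box H/ACA, and the scaffold genes Nolc1 (0.33 ± 0.07) and Ncl (0.21 ± 0.07). The next after Rrp9 and Mdn1 were Heatr1 (0.29 ± 0.07) for the small and Nop2 (0.49 ± 0.08) for the large subunit. In all, 26 members were called in at least 1 of these comparisons and 14 in none, the latter including Polr1a, Ubtf, Fbl, Dkc1, Npm1 and Pes1. The matching share of all tested genes was not counted, so the 26 has no background beside it.

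Whether the effect was larger in mesoderm than in endoderm was tested for each member. In the test of the difference between the genotype effects 0 of 40 were called by edgeR, 0 by DESeq2 and 0 by limma-voom (1.40% of all genes by edgeR). By edgeR 10 of the 40 had an unadjusted p under 0.05, against 1206 of all 11635 tested genes. The estimates nonetheless leaned one way: the endoderm effect was the smaller in 39 of 40, Noc3l being the exception, and the median difference was -0.19 against -0.00 over all genes. WT mesoderm library 3 enters all 40 of these differences, and without it the median was -0.11. Tsr1 had the smallest adjusted p (-0.53 ± 0.14, adjusted p = 0.0665), and it passed when no low-count filter was applied. Rrp12 passed without WT mesoderm library 1 (-0.80, adjusted p = 0.00723). Tsr1 stood at 62.7, 73.8 and 72.0 CPM in WT endoderm and 75.8, 72.2 and 64.7 CPM in arid4b∆ endoderm, which overlap.

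Between the lineages the members differed little. In WT cells 1 member, Rrn3, was higher in endoderm than in mesoderm, against 4.41% of all genes. It stood at 92.8, 99.6 and 97.8 CPM in endoderm and the mesoderm values given above (0.30 ± 0.09, adjusted p = 0.0421). Its call ended without any 1 of 5 WT libraries, all but mesoderm library 1, with adjusted p from 0.0563 to 0.171. The median over the 40 was 0.11, and -0.0051 without WT mesoderm library 3. In arid4b∆ cells no member was called by edgeR, DESeq2 or limma-voom (1.85% of all genes by edgeR). By edgeR 4 of the 40 had an unadjusted p under 0.05, against 1474 of all 11635 tested genes. Of the 40, 9 had non-overlapping libraries, all lower in endoderm (8.62% of all genes), among them Mdn1 (-0.26), Nolc1 (-0.21), Tsr1 (-0.31) and Nop2 (-0.26). Polr1a, Fbl, Ncl, Npm1, Dkc1 and Pes1 gave differences between endoderm and mesoderm of -0.04 to 0.24 in WT and -0.13 to 0.12 in arid4b∆ cells, and none passed the test. In WT cells Mdn1 (-0.08, edgeR adjusted p = 0.724) and Nolc1 (0.07, adjusted p = 0.777) were not called either, and their libraries overlapped.

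Beyond the 40, a list of 129 other ribosome biogenesis genes was read in the same way, 125 of them tested. In mesoderm 34 rose (27.2%, against 8.97% of all genes) and 0 fell (median 0.26). In endoderm 10 rose (8%, near the 5.78% of all genes) and 2 fell (median 0.13). Urb2, a nucleolar factor of the large subunit, went from 48.0, 51.2 and 43.0 CPM to 83.3, 90.7 and 95 CPM in mesoderm (0.94 ± 0.12, adjusted p = 1.03e-05) and rose by 0.86 ± 0.12 in endoderm (adjusted p = 2.34e-05). Cirh1a, the t-UTP protein UTP4, rose by 0.87 ± 0.11 in mesoderm (adjusted p = 4.58e-06) and 0.46 ± 0.10 in endoderm, and Naf1, which assembles H/ACA particles, by 0.80 ± 0.10 in mesoderm. Exosc2, a subunit of the RNA exosome, rose by 0.58 ± 0.13 in endoderm (adjusted p = 0.00472). The 2 genes that fell in endoderm were Npm3, a relative of nucleophosmin (-0.78 ± 0.13, adjusted p = 0.000159), and Rrp1 (-0.36 ± 0.09, adjusted p = 0.00723). In the average 39 rose (31.2%, against 13.9% of all genes) and 2 fell (1.6%, against 14.3%). Urb2 (0.90 ± 0.08), Cirh1a (0.67 ± 0.07) and Naf1 (0.60 ± 0.07) led the rise. Npm3 (-0.56 ± 0.09) and Ttf1 (-0.34 ± 0.12), a terminator of ribosomal DNA transcription, fell. Between WT lineages Naf1 (0.45 ± 0.10), Rrp1 (0.39 ± 0.09) and Npm3 (0.44 ± 0.13) were higher in endoderm.

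Of 13 tested snoRNA host genes 6 rose in mesoderm (46.2%, against 8.97% of all genes). The smallest adjusted p were those of the genes listed as 1500012F01Rik (Zfas1, 0.94 ± 0.17), 2410004N09Rik (Epb41l4aos, 1.36 ± 0.32) and 9430008C03Rik (Snhg17, 0.58 ± 0.17). In endoderm 1 rose, Snhg12 (0.72 ± 0.20), a share of 7.69% near the 5.78% of all genes. In the average 8 rose (61.5%, against 13.9% of all genes), led by 1500012F01Rik (0.71 ± 0.12), Snhg12 (0.71 ± 0.14) and Snhg1 (0.43 ± 0.10). Few genes for the ribosome's own proteins were called: of 81 cytosolic ones 2 rose in mesoderm (median 0.04) and 1 in endoderm (median -0.09), and of 75 mitochondrial ones 5 rose and 1 fell in mesoderm (median 0.13) and 1 rose in endoderm (median -0.01).

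Of 11 genes of the Myc network, Mycn rose in both lineages. It stood at 32.7, 31.0 and 32.0 CPM in WT endoderm and 41.1, 43.6 and 50.7 CPM in arid4b∆ endoderm (0.51 ± 0.13, adjusted p = 0.0108). In mesoderm it went from 32.0, 24.3 and 20.4 CPM to 40.9, 41.4 and 40.9 CPM (0.70 ± 0.14, adjusted p = 0.00131), and in neither lineage did the genotypes overlap. Mxd4, a Max partner that opposes Myc, fell in both (-1.28 ± 0.35 and -1.65 ± 0.40), from at most 7.59 CPM in any library. Mxd3, another such partner, fell in mesoderm (-0.80 ± 0.22, adjusted p = 0.0122). Myc itself fell in endoderm, from 18.1, 20.8 and 22.1 CPM to 12.8, 14.9 and 14.2 CPM (-0.53 ± 0.15, adjusted p = 0.0235), and was not called in mesoderm, with 10, 8.79 and 10.5 CPM in WT and 11.2, 14.5 and 15.8 CPM in arid4b∆ libraries (0.47 ± 0.18, adjusted p = 0.0712). Mycl fell in endoderm (-1.40 ± 0.16, adjusted p = 1.22e-06). In the average Mycn rose (0.60 ± 0.10) while Mycl (-0.85 ± 0.11), Mxd4 (-1.47 ± 0.27) and Mxd3 (-0.54 ± 0.15) fell. In WT cells Myc (1.03 ± 0.17) and Mycl (0.74 ± 0.15) were higher in endoderm than in mesoderm.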

How the data were processed

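Total RNA was rRNA-depleted and made into directional libraries, per the labels' protocols. The authors deposited 1 table of whole-number read counts per gene for 12 libraries. STAR, DESeq2 and build mm10 are named in the submitters' processing notes, without the role of each. The program that counted reads, the annotation and any strand setting: not given in the sources used here. For 26 genes, no member among them, 1 library held a date in place of a count, and these were left out. Groups came from the sample titles. Rn45s was removed from library sizes and tests. Mir6236 and Lars2 were kept, although with their ribosomal RNA sequence they made up 49.7% to 69.5% of what remained.

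Counts were tested with edgeR 4.0.16 in R 4.3.3: TMM scaling, filterByExpr at a minimum count of 10 (11635 genes), 1 fit of 4 group means over 12 libraries, quasi-likelihood tests, and a Benjamini-Hochberg adjusted p under 0.05 across those genes. "Called", "rose" and "fell" mean past that threshold. SE was computed from the fold change and the F statistic. The biological coefficient of variation was 9.71%. No 2 replicate libraries were identical. The test was also tried on simulated counts, with means and spread taken from the main fit. DESeq2 1.42.0, limma-voom (limma 3.58.1), other scalings, filters and left-out libraries served as alternatives. Reads had no molecular identifiers.

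Members and gene lists were chosen with earlier results of these data known, so no list was tested as a set. Named by rule in each comparison were all called members where 12 or fewer were called, otherwise the 2 called with the smallest adjusted p per role; Polr1a, Fbl, Ncl, Npm1, Dkc1, Pes1, Mdn1 and Nolc1 whatever their result; and from other lists the 3 called with the smallest adjusted p in each direction. Other members, named to account for all 40, and Bop1 in endoderm, Mycl and Myc were given with their values known. Positions and promoters are RefSeq's on GRCm38.p6, the assembly of mm10. CPM per kilobase used the median principal transcript of GENCODE.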

Additional observations from a re-analysis of the deposited data

Results flagged for a closer look

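In 2 genes of the Myc network the genotype effect differed between the lineages by the test of the difference itself. Mycl differed by -1.10 on the log2 scale, the endoderm effect minus the mesoderm effect (± 0.23 SE, edgeR adjusted p = 0.0126). Its CPM was 53.1, 51.8 and 48.5 in WT endoderm against 17.2, 17.3 and 23.3 in arid4b∆ endoderm, and 24, 26.9 and 38.3 in WT mesoderm against 21.6, 28.1 and 25.4 in arid4b∆ mesoderm. Myc differed by -1.004 (± 0.24 SE, adjusted p = 0.0312), with lower levels in arid4b∆ than in WT endoderm libraries and higher levels in arid4b∆ than in WT mesoderm libraries. None of the 40 ribosome biogenesis genes differed in this test. Groups of 3 libraries were not tested for outlying samples.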

How the results depend on the processing

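No called gene changed direction under any alternative run. For members called in a comparison or named whatever their result, 1376 values under alternatives stayed on their side of the threshold, 117 lost the call and 8, all for Ncl in mesoderm, gained it. That tally leaves out members not called and not so named, among which Tsr1 and Rrp12 gained a call in the difference between the genotype effects, and Rrp12 and Nhp2 between WT lineages. Scaling by library size alone, which leaves the differing shares of Mir6236 and Lars2 in the sizes, moved the median of all genes by -0.15 in endoderm and -0.22 in mesoderm. It left 0 members called in endoderm, 0 in mesoderm, 1 in the average and 0 between WT lineages, with member medians of -0.0044, 0.13, 0.082 and 0.22, and 0.072 between arid4b∆ lineages. The same scaling without Mir6236 and Lars2, chosen after seeing the data, gave 3, 19 and 22 in the genotype comparisons and 0 between WT lineages. DESeq2 gave 3, 17, 20 and 0. Fits on the compared groups alone gave 6 in endoderm, 18 in mesoderm and 0 between WT lineages. Without the low-count filter 1 member, Tsr1, was called in the difference between the genotype effects.

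Same-numbered libraries were not treated as paired in the main fit. Their deviations correlated between -0.06 and 0.19, over 0.1 in 5 of 18 pairs. Differently numbered libraries were not compared, so these values cannot show that the numbers share no effect. In each of the 4 groups the Rn45s share and the fibroblast or feeder sum were highest in library 1. With replicate number as a block, 4 members were called in endoderm, 24 in mesoderm, 27 in the average, 1 (Tsr1) in the difference, 1 between WT lineages and 0 between arid4b∆ lineages.

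Leaving out 1 library at a time gave 2 to 3 calls and medians of 0.11 to 0.18 in endoderm, 13 to 23 and 0.28 to 0.41 in mesoderm, 20 to 28 and 0.23 to 0.29 in the average, 0 to 1 (Rrp12, without WT mesoderm library 1) and -0.23 to -0.11 in the difference, 0 to 3 and -0.0051 to 0.20 between WT lineages, and 0 calls between arid4b∆ lineages with medians of -0.15 to -0.073. The cause of these shifts was not tested. For the alternative fits the share of all tested genes called is not given here, so their counts of members have no background beside them. Depth limits the low members: Nop16 had as few as 20 counts in a library.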
